A study of Mus musculus with 8 samples.

Results

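The 3 Gadd45 genes (Gadd45a, Gadd45b and Gadd45g) and 7 target genes of the tumor suppressor p53 (Cdkn1a, Mdm2, Ccng1, Btg2, Bbc3, Bax and Sesn1) were followed in the livers of leptin receptor-deficient db/db mice that received a GFP or a NAMPT adenovirus. These 10 genes were picked by symbol from the 41388 features counted. The list was proposed with this contrast's results in view, in which Gadd45a ranked 3 by unadjusted p among the genes with a higher estimate in the NAMPT group. Their differences between groups are therefore given as a description.

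NAMPT is the rate-limiting enzyme of the NAD+ salvage pathway. Both groups were db/db littermates on the strain labelled C57B/6J, randomised at 5 weeks of age and injected through the tail vein. The AdGFP group (n = 4 livers, genotype label control) received adenovirus carrying GFP. The AdNAMPT group (n = 4 livers, genotype label NAMPT overexpression) received adenovirus carrying NAMPT. The age label is 10 weeks for all 8 mice, and the design text gives 4 to 5 weeks of expression, whereas the study's methods describe a shorter interval for adenovirus. Leptin receptor deficiency was shared by both groups, so no lean liver was compared. The study describes the NAMPT expression in these mice as that of hepatocytes. The promoter that drives the transgene is not given in the sources used here, and expression in other liver cells cannot be told apart in whole tissue.

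Each liver gave 1 RNA-seq library of 50-base single reads, with 12006713 to 19879814 counted reads. At these depths 3 reads equal 0.151 to 0.250 CPM (counts scaled to a common library total), and every one of the 10 genes lay above that floor in all 8 libraries. The 12 hepatocyte markers examined summed to 120863 to 150022 CPM in AdGFP and 123031 to 149196 CPM in AdNAMPT. Alb held most of these sums, with means of 89983 and 88819 CPM. Of the 12 markers, 4 had a higher and 8 a lower estimate in AdNAMPT, with a median log2 difference of -0.10. With scaling by library size alone the split was 6 and 6. Mouse Nampt, the gene named by the vector, was at 102, 137, 153 and 142 CPM in AdGFP and 149, 120.5, 178 and 168 CPM in AdNAMPT. The libraries of both labels interleaved, and the estimated log2 difference was 0.08 (SE 0.15, limma adjusted p 0.915), so the level counted at mouse Nampt does not separate the labels. The study describes the NAMPT adenovirus of its cultured hepatocytes as carrying the mouse sequence. If the mice received the same vector, reads from its coding part would be counted at Nampt together with the endogenous transcript. AdGFP and AdNAMPT below therefore mean the libraries so labelled, and each direction rests on those labels.

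p53 is a transcription factor that is stabilised by DNA damage and other stress, and it activates genes that hold the cell cycle, repair DNA or trigger apoptosis. The Gadd45 genes encode small acidic proteins that bind PCNA, p21 and the MAP kinase kinase kinase MEKK4. Gadd45a is a direct p53 target, while Gadd45b and Gadd45g are better known in liver as rapid responders to cytokines, TGF-beta and mitogens. Oct-1 and NF-Y, which bind the octamer and the CCAAT box, are known activators of the Gadd45a promoter.

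The RefSeq promoter table held a window for all 10 genes, 14 windows in all, each running from 250 bases before to 50 bases after a start site. The 250 bases before the start of the 3 Gadd45 genes are shown first, because Gadd45a and Gadd45g share an octamer that few promoters carry and Gadd45b does not. Capitals mark the octamer ATTTGCAT or its reverse complement, the CCAAT box, the TATA box (TATAAA) and the E-box (CACGTG) in the lines where each occurs. The windows lie at chr6:67037408-67037657 (minus strand), chr10:80929841-80930090 (plus strand) and chr13:51846425-51846674 (plus strand) of GRCm38.p6, and each is written 5′ to 3′ on the gene's strand.
Gadd45a: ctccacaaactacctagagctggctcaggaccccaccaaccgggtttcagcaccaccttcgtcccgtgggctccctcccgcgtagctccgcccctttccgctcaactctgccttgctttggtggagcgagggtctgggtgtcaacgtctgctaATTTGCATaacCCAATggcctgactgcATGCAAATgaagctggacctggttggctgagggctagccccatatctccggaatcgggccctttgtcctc
Gadd45b: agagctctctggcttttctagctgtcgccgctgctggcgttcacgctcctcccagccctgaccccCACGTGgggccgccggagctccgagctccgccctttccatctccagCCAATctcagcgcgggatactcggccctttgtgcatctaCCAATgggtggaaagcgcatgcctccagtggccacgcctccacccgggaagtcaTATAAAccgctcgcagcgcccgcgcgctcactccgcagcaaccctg
Gadd45g: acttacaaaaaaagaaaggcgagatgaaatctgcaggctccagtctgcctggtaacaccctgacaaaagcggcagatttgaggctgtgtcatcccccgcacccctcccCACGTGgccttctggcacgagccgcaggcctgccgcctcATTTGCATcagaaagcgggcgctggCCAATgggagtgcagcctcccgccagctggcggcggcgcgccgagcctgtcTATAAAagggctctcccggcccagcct
The octamer occurred in 1.74% of the 32851 windows in the table when both strands were searched, and among the 10 genes in Gadd45a and Gadd45g. Gadd45a held 2 octamers, at -97 to -90 and, on the other strand, at -70 to -63 from the start site, on either side of a CCAAT box at -86 to -82. At least 2 octamers occurred in 0.107% of windows. Gadd45g held 1 octamer at -103 to -96 with a CCAAT box at -78 to -74, and an octamer together with a CCAAT box occurred in 0.858% of windows. TATAAA, found in 13.6% of windows, lay at -27 to -22 in Gadd45g and at -46 to -41 in Gadd45b, and these letters were not in the Gadd45a window. CCAAT alone is common, being present in 37.4% of windows and in those of 8 of the 10 genes. The letters CACGTG, found in 7.15% of windows, were in those of Gadd45b, Gadd45g, Bbc3 and Bax. TGACGTCA, the cyclic AMP element, was in 1.79% of windows and in that of Btg2. None of the matches marked in the 3 lines overlapped another.

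A p53 response element was searched as a pair of adjoining half-sites over 20 bases with at most 1 mismatch and the C and G of both cores intact. Such an element occurred in 22 of the 32851 windows (0.0670%), and 2 of those 22 were in Cdkn1a and Ccng1. These windows are shown because such elements are the sequence through which p53 binds its target genes. Capitals mark the element, and the windows lie at chr17:29090729-29090978 (plus strand, the upstream of 2 Cdkn1a windows) and chr11:40755287-40755536 (minus strand) of GRCm38.p6.
Cdkn1a: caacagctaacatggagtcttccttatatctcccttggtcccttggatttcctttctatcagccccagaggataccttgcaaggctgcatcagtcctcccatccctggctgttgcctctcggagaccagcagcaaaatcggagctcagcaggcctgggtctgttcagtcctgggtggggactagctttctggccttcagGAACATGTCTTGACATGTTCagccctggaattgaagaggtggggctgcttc
Ccng1: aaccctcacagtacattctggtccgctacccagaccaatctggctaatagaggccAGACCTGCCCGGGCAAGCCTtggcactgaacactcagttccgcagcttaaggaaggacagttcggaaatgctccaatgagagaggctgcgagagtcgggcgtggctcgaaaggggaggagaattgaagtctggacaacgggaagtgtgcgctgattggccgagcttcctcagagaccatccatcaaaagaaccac
The element ran from -51 to -32 in Cdkn1a and from -195 to -176 in Ccng1. A match is a description of letters only, and p53 elements outside these windows were not searched.

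Gadd45a (ENSMUSG00000036390, GRCm38 chromosome 6, 67035096 to 67037457, minus strand) was the 1 gene of the 10 whose groups stayed apart on deposited CPM and after TMM scaling, which corrects each library total for its composition. It was at 3.08, 6.14, 2.81 and 4.60 CPM in AdGFP, from 45, 87, 47 and 63 reads. In AdNAMPT it was at 7.66, 11.4, 8.70 and 8.43 CPM, from 92, 167, 173 and 143 reads. The lowest AdNAMPT library lay above the highest AdGFP library, and library 2 was the highest of both groups. The means were 4.16 ± 1.54 CPM (SD, n = 4) in AdGFP and 9.05 ± 1.63 CPM (SD, n = 4) in AdNAMPT. The log2 fold change was 1.23 (SE 0.22, 95% confidence interval 0.74 to 1.72), which is 2.35-fold (1.67 to 3.30). The adjusted p from limma, a linear model fitted to the counts of all genes above 1 CPM in at least 3 libraries, was 0.0606, above the threshold of 0.05. With 1 library left out in turn, it ran from 0.0247 without AdGFP library 2, the only such fit that passed, to 0.249 without AdGFP library 1. DESeq2 gave an adjusted p of 0.0116 and edgeR's quasi-likelihood test 0.305 for the same counts. None of the 9 genes that entered the test passed in limma, where 0.277% of 12270 genes did, or in edgeR, where 0.269% did. In DESeq2, where 0.611% of genes passed, Gadd45a was the 1 of the 9 that did. Groups that did not overlap after TMM scaling were seen in 1 of the 9 and in 4.76% of all genes tested.

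Gadd45a was also the only one of the 10 genes whose exons overlap another feature. E230016M11Rik (ENSMUSG00000087231), a noncoding transcript on the plus strand, shares 337 of the 1764 exonic bases of Gadd45a, or 19.1%. The study's methods count only unambiguous reads, and whether strand was used is not given in the sources used here. Without strand, reads in the shared stretch would fit both features and be left out of each. The effect of that on the level of Gadd45a was not tested. E230016M11Rik itself was low, at 1.22 ± 0.283 CPM (SD, n = 4) in AdGFP and 1.18 ± 0.399 CPM (SD, n = 4) in AdNAMPT. Its groups overlapped, with a log2 fold change of -0.19 (SE 0.32) estimated without the filter on low counts.

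Gadd45b (ENSMUSG00000015312, chromosome 10, 80930091 to 80932204) was expressed at a low level. It was at 0.889, 0.847, 1.61 and 0.804 CPM in AdGFP and at 0.999, 0.819, 1.56 and 0.825 CPM in AdNAMPT, from 11 to 31 reads. Library 3 was the high one in each group, and the other 6 libraries lay at or below 0.999 CPM. Gadd45b was above 1 CPM in 2 libraries and so did not enter the test, which asked for 3. Without the filter, its log2 fold change was -0.10 (SE 0.32, 95% confidence interval -0.79 to 0.60).

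Gadd45g (ENSMUSG00000021453, chromosome 13, 51846678 to 51848468) had the widest spread between livers of one group among the 10 genes, as the ratio of the highest to the lowest. It was at 2.94, 2.75, 32.1 and 9.87 CPM in AdGFP and at 6.50, 4.03, 25.8 and 5.36 CPM in AdNAMPT. Library 3 was far above the others in each group, with 537 and 513 reads. The highest library was 11.6-fold above the lowest in AdGFP and 6.41-fold in AdNAMPT. The groups overlapped, at 11.9 ± 13.8 CPM (SD, n = 4) and 10.4 ± 10.3 CPM (SD, n = 4). The log2 fold change was -0.14 (SE 0.81, 95% confidence interval -1.92 to 1.64), an interval too wide to exclude a difference of the size seen for Gadd45a in either direction. Its sign rested on single libraries, with 0.65 without AdGFP library 3 and -0.93 without AdNAMPT library 3.

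**Figure D1:**
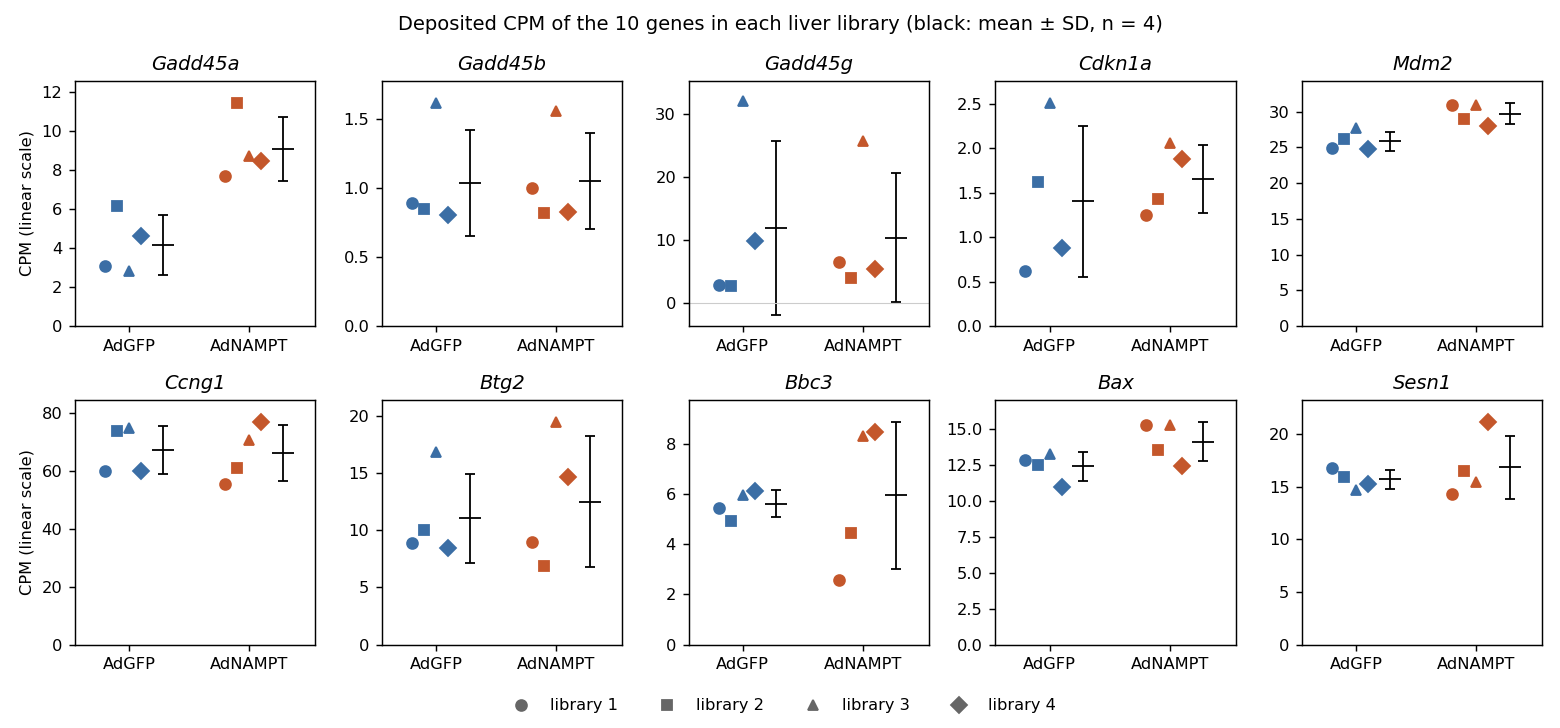
CPM of each gene on a linear axis, with 1 point per liver library (blue AdGFP, orange AdNAMPT, marker shape by library number) and the mean ± SD of 4 libraries in black. The 4 AdNAMPT points of Gadd45a, from 7.66 to 11.4 CPM, lie above all 4 AdGFP points, while the library numbered 3 is the high point for Gadd45g and Gadd45b in both groups.

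The make-up of the Gadd45 family differed from liver to liver when levels were taken per length (RPKM). The 3 genes summed to 4.95, 6.50, 30.2 and 11.7 RPKM in AdGFP and to 10.7, 10.5, 28.2 and 10.0 RPKM in AdNAMPT. Gadd45g supplied 90.5% of that sum in AdGFP library 3 and 78.1% in AdNAMPT library 3, and 32.6% to 72.2% in the other 6. Gadd45a supplied 35.2%, 53.6%, 5.27% and 22.4% in AdGFP and 40.7%, 61.3%, 17.5% and 47.8% in AdNAMPT. Gadd45b supplied 4.22% to 14.2% of it. The shares of all 3 genes overlapped between groups.

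The genes that restrain the cell cycle came next. Cdkn1a (ENSMUSG00000023067, chromosome 17, 29090979 to 29100722) encodes p21, an inhibitor of cyclin-dependent kinases and the classical p53 target. It was at 0.615, 1.62, 2.51 and 0.877 CPM in AdGFP and at 1.25, 1.43, 2.06 and 1.89 CPM in AdNAMPT, from 9 to 42 reads. The AdNAMPT values lay within the AdGFP range. The log2 fold change was 0.39 (SE 0.40, 95% confidence interval -0.49 to 1.26).

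Ccng1 (ENSMUSG00000020326, chromosome 11, 40748552 to 40755311) encodes cyclin G1, which recruits a phosphatase to Mdm2. It was at 59.8, 73.7, 74.6 and 59.8 CPM in AdGFP and at 55.5, 60.8, 70.7 and 76.8 CPM in AdNAMPT. The 2 groups covered almost the same range, with means of 67.0 ± 8.30 CPM (SD, n = 4) and 65.9 ± 9.59 CPM (SD, n = 4). With 666 to 1405 reads per library the estimate was narrow, a log2 fold change of -0.08 (SE 0.12, 95% confidence interval -0.34 to 0.17). That interval excludes a rise of the size estimated for Gadd45a.

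Btg2 (ENSMUSG00000020423, chromosome 1, 134075170 to 134079120) encodes an antiproliferative partner of the mRNA deadenylase complex. It was at 8.89, 10.0, 16.8 and 8.48 CPM in AdGFP and at 8.99, 6.83, 19.5 and 14.7 CPM in AdNAMPT. Library 3 was again the highest in each group, and values of both groups interleaved. Its log2 fold change was 0.02 (SE 0.33, 95% confidence interval -0.70 to 0.73).

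Mdm2 (ENSMUSG00000020184, chromosome 10, 117688888 to 117710758) encodes the ubiquitin ligase that degrades p53 and is itself induced by p53. It was at 24.9, 26.2, 27.7 and 24.8 CPM in AdGFP and at 31.0, 29.0, 30.9 and 28.0 CPM in AdNAMPT. On the deposited CPM the groups did not overlap, which was true of 2 of the 9 genes tested here and of 8.22% of all genes tested. After TMM scaling they overlapped, and the log2 fold change was 0.09 (SE 0.07, 95% confidence interval -0.06 to 0.25). Scaling by library size alone gave 0.18, a setting that also moved the median of all genes to 0.09.

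The proapoptotic genes overlapped between groups. Bax (ENSMUSG00000003873, chromosome 7, 45461695 to 45466898) encodes the pore-forming BCL2 family protein of the mitochondrial outer membrane. It was at 12.8, 12.5, 13.3 and 11.0 CPM in AdGFP and at 15.2, 13.5, 15.2 and 12.4 CPM in AdNAMPT, with a log2 fold change of 0.07 (SE 0.10, 95% confidence interval -0.14 to 0.29). Bbc3 (ENSMUSG00000002083, chromosome 7, 16309616 to 16318205) encodes PUMA, a BH3-only protein that activates Bax. It was at 5.47, 4.94, 5.97 and 6.14 CPM in AdGFP and at 2.58, 4.44, 8.35 and 8.49 CPM in AdNAMPT. The AdNAMPT libraries lay on both sides of the narrow AdGFP range, and their SD was 2.93 CPM against 0.540 CPM in AdGFP (n = 4 each). The log2 fold change was -0.02 (SE 0.26, 95% confidence interval -0.58 to 0.55).

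Sesn1 (ENSMUSG00000038332, chromosome 10, 41810574 to 41908424) encodes sestrin 1, a stress protein that restrains mTORC1. It was at 16.8, 15.96, 14.7 and 15.3 CPM in AdGFP and at 14.3, 16.5, 15.4 and 21.2 CPM in AdNAMPT. AdNAMPT library 4 was the high one and the others interleaved. The log2 fold change was 0.03 (SE 0.12, 95% confidence interval -0.23 to 0.28).

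**Figure D2:**
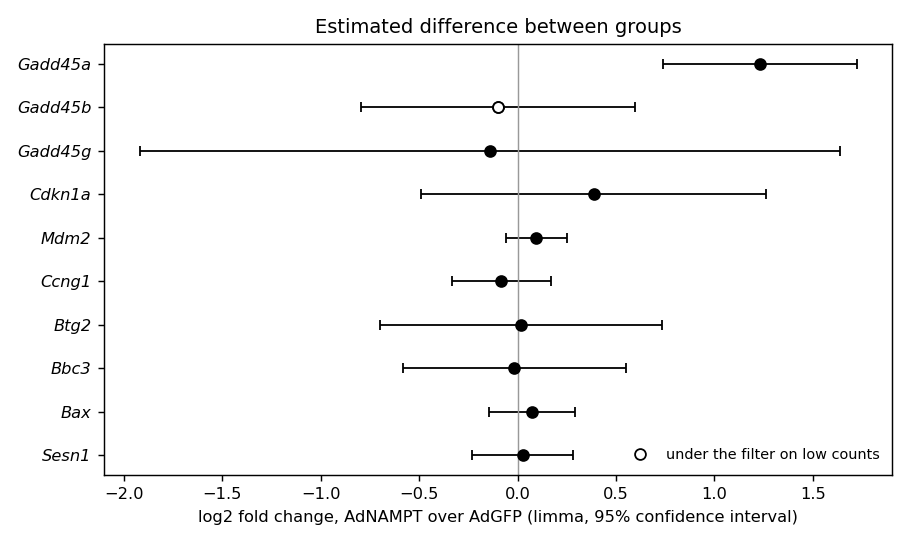
Estimated log2 fold change of each gene, AdNAMPT over AdGFP, with its 95% confidence interval from limma; the open symbol is Gadd45b, which was under the filter on low counts. The interval of Gadd45a, 0.74 to 1.72, lies above 0, those of the other 9 genes include 0, and that of Gadd45g is the widest, from -1.92 to 1.64.

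Taken per length over all 8 libraries, Ccng1 had the highest mean level at 18.9 RPKM and Bax the next at 15.2 RPKM. Gadd45g followed at 9.52 RPKM, then Mdm2 at 5.48, Sesn1 at 4.89, Btg2 at 4.29, Gadd45a at 3.74 and Bbc3 at 2.89 RPKM. Gadd45b at 0.825 RPKM and Cdkn1a at 0.689 RPKM were the lowest. The ranges of neighbours in this order overlapped in each case except Bbc3 and Gadd45b, whose levels were in this order in 8 of 8 libraries. Cdkn1a, the gene most often read as a p53 response, was counted in 9 to 42 reads per library, against 666 to 1405 for Ccng1. Ranges that overlap leave the order of the remaining neighbours unsettled, and Gadd45g was above Mdm2 in 3 of 8 libraries despite its higher mean.

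The libraries numbered 3 had the highest level within their own group for 4 of the 10 genes, namely Gadd45b, Gadd45g, Cdkn1a and Btg2, of which Gadd45b was under the filter. Over all genes tested, 7.40% had library 3 highest in both groups, as had 3 of the 9 of these genes that were tested. The corresponding figures were 9.02% of genes and 0 of the 10 for number 1, 5.48% and Gadd45a for number 2, and 7.12% and Bbc3 for number 4. The labels say of these numbers only that they name libraries, and do not tie the 2 libraries numbered 3 to one litter or day. On TMM-scaled log2 CPM, Gadd45g in library 3 exceeded the next library by 1.70 in AdGFP and by 1.98 in AdNAMPT. By the smaller of the 2 gaps Gadd45g ranked 1 of 12270 genes, Btg2 ranked 33 with 0.36, and Cdkn1a ranked 389 with 0.07. This ranking was made for number 3 only, with these levels in view, so the ranks are a description.

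The genes that ranked after Gadd45g were looked up after their values had been seen. They were Sult2a3, a sulfotransferase (smaller gap 1.07), Dusp1, a MAP kinase phosphatase (1.02), Slc25a25, a mitochondrial carrier of ATP and magnesium (0.92), Sik1, a salt-inducible kinase (0.85), and B230206L02Rik (0.82). Dusp1 was at 11.4, 19.8, 57.1 and 28.2 CPM in AdGFP and at 23.8, 27.5, 97.4 and 14.3 CPM in AdNAMPT. Sik1 was at 25.2, 18.1, 45.6 and 22.1 CPM in AdGFP and at 17.4, 14.4, 53.3 and 22.2 CPM in AdNAMPT. Both of these genes are acutely induced by hormones and stress. The early response genes listed below were mixed in this respect on the deposited CPM. Egr1 was highest in library 3 of both groups. Nr4a1 was highest in library 3 of AdNAMPT but in library 1 of AdGFP. The libraries numbered 3 were also the deepest of their groups, with 16741413 and 19879814 counted reads, and the part of depth in these levels was not tested. Without both libraries numbered 3, a comparison added after the data had been seen, the log2 fold change of Gadd45g was -0.14 (SE 0.44) and that of Gadd45a 1.16 (SE 0.25).

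**Figure D3:**
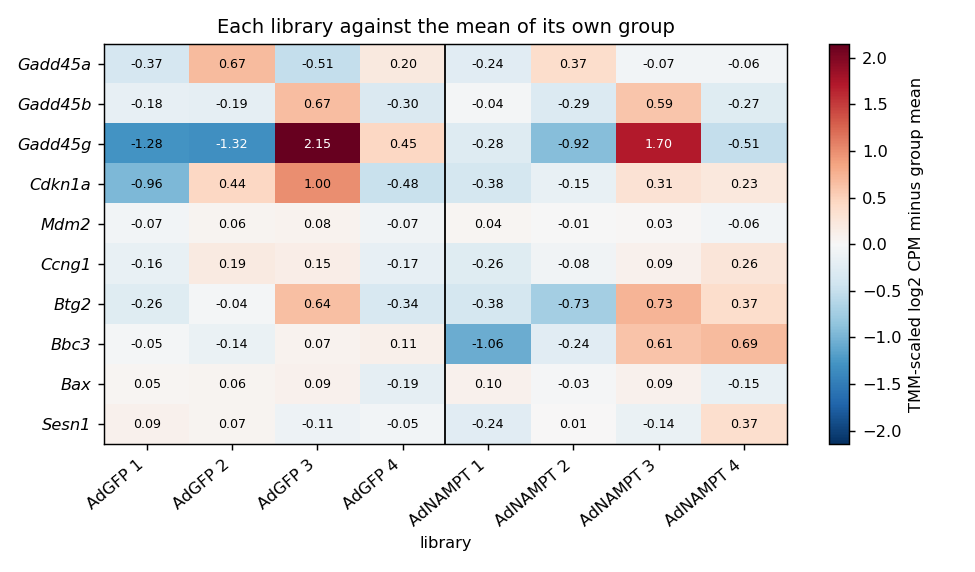
TMM-scaled log2 CPM of each gene in each library minus the mean of that library's group, with red above and blue below the mean and the vertical line dividing AdGFP from AdNAMPT. Gadd45g in the libraries numbered 3 stands 2.15 and 1.70 above its group means, whereas Mdm2 and Bax stay within 0.19 of theirs in all 8 libraries.

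Other genes of the pathway were counted from 8 lists holding 155 distinct genes, of which 128 entered the test. None of the 128 passed limma's adjusted threshold, and 16 had an unadjusted p under 0.05, beside 9.69% of all genes tested. In the other p53 target genes, 36 of 41 were tested, 15 with a higher and 21 with a lower estimate, and the median log2 fold change was -0.01 against 0.0015 for all genes. Of the 36, 7 had an unadjusted p under 0.05 in limma, 4 higher and 3 lower. Scaling by library size alone turned that split to 25 higher and 11 lower, and DESeq2 gave 18 and 18. Plk2, a polo-like kinase, was at 8.34, 11.6, 8.72 and 9.14 CPM in AdGFP and at 16.2, 13.5, 18.2 and 13.5 CPM in AdNAMPT. These groups did not overlap, with an estimate of 0.62 on the log2 scale (SE 0.13, limma adjusted p 0.137). It was the one gene of this list that passed in DESeq2. Phlda3, an inhibitor of AKT, had a log2 fold change of 0.59 (SE 0.25, limma adjusted p 0.492). On the lower side were Pml, the nuclear body scaffold, at -0.32 (SE 0.12, limma adjusted p 0.459) and Dcxr, a carbonyl reductase, at -0.19 (SE 0.07, limma adjusted p 0.465). After TMM scaling, groups did not overlap for 2 higher genes of this list, Plk2 among them, and 2 lower ones, Pml among them. The share over all genes tested was 4.76%.

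Of p53 and its regulators, 17 of 18 were tested, 8 with a higher and 9 with a lower estimate, with a median log2 fold change of -0.02. Under scaling by library size alone 14 were higher and 3 lower. Trp53, which encodes p53 and is named here outside the rule for list genes, overlapped between groups with an estimate of -0.02 on the log2 scale (SE 0.11), and its sign turned under that scaling, at 0.07. The acetyltransferase gene Kat5 was at 0.24 (SE 0.11, limma adjusted p 0.513) and the deubiquitinase gene Usp7 at 0.09 (SE 0.07). Chek1 and Chek2, the checkpoint kinases upstream of p53, were at -1.06 (SE 0.50, limma adjusted p 0.534) and -0.64 (SE 0.39). Chek1 was at 0.273 to 1.91 CPM over the 8 libraries, so its estimate rests on few reads.

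Of the Gadd45 partners and MAP kinases, 15 of 17 were tested, 9 with a higher and 6 with a lower estimate, around a median log2 fold change of 0.02. None had an unadjusted p under 0.05. Cdk1, the mitotic kinase that Gadd45 proteins bind, was estimated at 0.37 on the log2 scale (SE 0.31). Map2k4, a kinase above JNK and p38, was at 0.04 (SE 0.07). Map2k6, a kinase above p38, was at -0.19 (SE 0.13) and Tet3, a methylcytosine dioxygenase, at -0.12 (SE 0.12).

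Of the transcription factors upstream of Gadd45 genes, 18 of 19 were tested, 7 with a higher and 11 with a lower estimate, and the median log2 fold change was -0.14. That median was 2.83e-05 without AdNAMPT library 2 and -0.06 without AdGFP library 3. Atf3, a stress-induced factor of the ATF/CREB family, was at 0.889, 0.988, 0.777 and 0.512 CPM in AdGFP and at 1.08, 1.64, 1.96 and 1.95 CPM in AdNAMPT. On the deposited CPM these groups did not overlap, but after TMM scaling they did. Atf3 had an estimate of 1.09 on the log2 scale (SE 0.27, limma adjusted p 0.228). Myc, a repressor of Gadd45a, was at 0.45 (SE 0.21, limma adjusted p 0.541). Stat3, the cytokine-activated factor, was at -0.21 (SE 0.07, limma adjusted p 0.392) and Nr1i3, the receptor CAR that acts on Gadd45b, at -0.26 (SE 0.14). The groups of Stat3 overlapped on the deposited CPM but not after TMM scaling.

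Of the early response genes, 15 of 20 were tested, 11 with a higher and 4 with a lower estimate, and the median log2 fold change was 0.29. It was 0.11 without AdNAMPT library 3 and 0.43 without AdNAMPT library 2. Of the 15, 4 had an unadjusted p under 0.05 in limma, all 4 with a higher estimate, beside 9.69% of all genes tested. None passed the adjusted threshold. Jund, an AP-1 subunit, had a log2 fold change of 0.45 (SE 0.14, limma adjusted p 0.382), and Atf3 belongs to this list as well. Egr1 and Nr4a1, immediate early transcription factors, were at -0.43 (SE 0.46) and -0.50 (SE 0.95). Nr4a1 ranged from 0.365 to 5.81 CPM in AdGFP and from 0.472 to 5.23 CPM in AdNAMPT, so that livers of each group covered nearly the whole range.

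Of the paralogs of the 10 genes, 11 of 15 were tested, 3 with a higher and 8 with a lower estimate. Their median was -0.09, and -0.03 without AdNAMPT library 2 or -0.06 without AdGFP library 1. Scaling by library size alone gave 5 higher and 6 lower, with a median of -0.00037. Tob1 and Btg1, both antiproliferative relatives of Btg2, were at -0.41 (SE 0.17, limma adjusted p 0.492) and -0.24 (SE 0.10, limma adjusted p 0.503), and on the higher side were Cdkn2c at 0.19 (SE 0.11) and Tob2 at 0.07 (SE 0.12). Of the BCL2 family, 10 of 16 were tested, 7 with a higher and 3 with a lower estimate, and the median was 0.11, but 0.01 without AdNAMPT library 3 and 0.03 without AdNAMPT library 4. The proapoptotic members Bok and Bid were at 0.36 (SE 0.13, limma adjusted p 0.429) and 0.17 (SE 0.08, limma adjusted p 0.569). Their groups did not overlap after TMM scaling, which held for 4.76% of all genes tested. Bmf was at -0.26 (SE 0.23) and the survival gene Bcl2l1 at -0.15 (SE 0.08). Of the cell cycle genes lowered through p21, 12 of 18 were tested, 4 with a higher and 8 with a lower estimate. Their median was -0.11, whereas DESeq2 and edgeR each gave 8 higher and 4 lower for the same 12 genes. AdNAMPT library 4 stood apart in this list. Outside the rule for list genes, Mki67 was at 11.4 CPM there while AdNAMPT libraries 1 to 3 held 2.87 to 4.68 CPM, and Cdc20 at 6.07 CPM against 1.08 to 1.37 CPM. Without library 4 the median was -0.56, and none of the 12 genes passed limma's adjusted threshold. In that fit 7 of the 12 had an unadjusted p under 0.05, beside 1408 of all 12431 genes tested. Without AdNAMPT library 3 the median was -0.38, whereas without AdNAMPT library 1 or 2 it was above 0, at 0.09 and 0.14. Without AdGFP library 4 it was -0.00059. The genes named from it are Cdk1 at 0.37 (SE 0.31), Birc5, which encodes survivin, at 0.13 (SE 0.27), the mitotic kinase gene Aurka at -0.29 (SE 0.22) and the topoisomerase gene Top2a at -0.33 (SE 0.37).

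**Figure D4:**
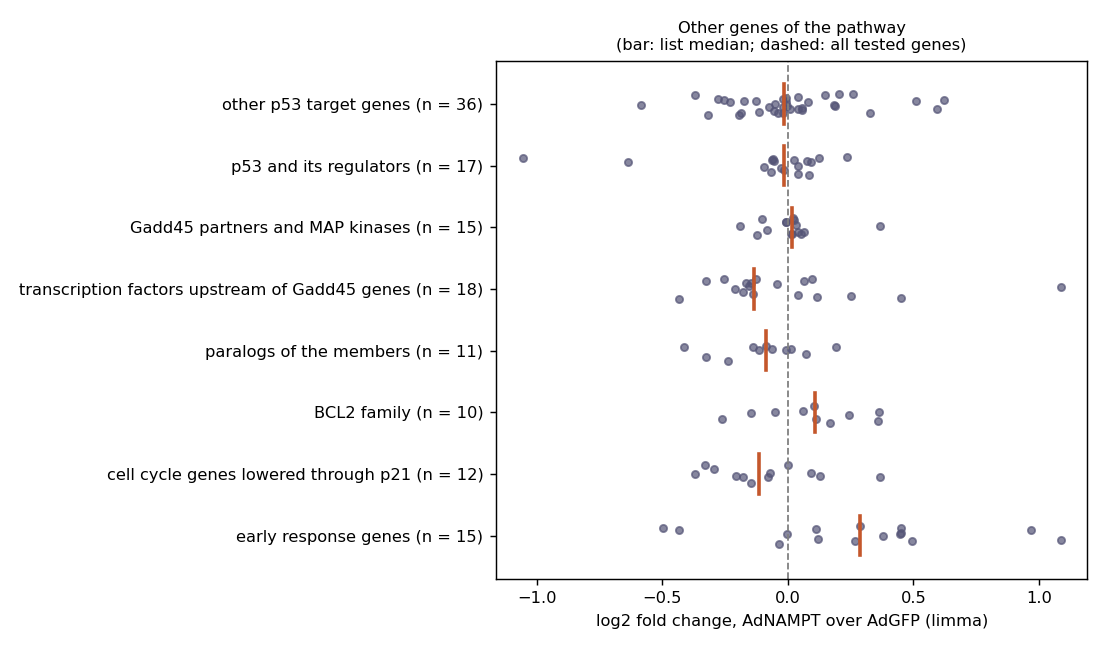
Log2 fold change of each tested gene in the 8 lists, AdNAMPT over AdGFP by limma, with 1 point per gene, an orange bar at the list's median and a dashed line at the median of all tested genes. The list medians run from -0.14 (near 0 without AdNAMPT library 2) for the transcription factors upstream of Gadd45 genes to 0.29 (0.11 without AdNAMPT library 3) for the early response genes.

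In whole liver, fewer cells of a type and less RNA per cell cannot be told apart. Markers of other liver cells were set beside these values, and none passed the adjusted threshold in limma or stood at 0 in all libraries. The 11 Kupffer cell and macrophage markers all had lower estimates in AdNAMPT, also under the other scalings run, with a median log2 fold change of -0.30. Their summed level was 352 to 448 CPM in AdGFP and 267 to 434 CPM in AdNAMPT, so these sums overlapped between groups. The 8 endothelial markers summed to 267 to 313 CPM and 281 to 331 CPM, the 8 stellate cell markers to 398 to 447 CPM and 413 to 466 CPM, and the 6 cholangiocyte markers to 26.7 to 42.2 CPM and 29.6 to 44.4 CPM. The 11 T and NK cell markers summed to 3.43 to 5.72 CPM and 4.00 to 8.55 CPM, and the 8 neutrophil and B cell markers to 3.39 to 6.43 CPM and 2.998 to 7.90 CPM. Some RNA shares did not overlap between the groups. Mitochondrial ribosomal RNA took 1.77% to 2.56% of counts in AdGFP and 0.863% to 1.62% in AdNAMPT, and Gm42418, a feature that overlaps ribosomal RNA sequence, 0.996% to 2.25% and 0.2001% to 0.233%. The part of these shares and of the Kupffer cell markers in the level of Gadd45a was not tested.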

How the data were processed

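Liver RNA from 8 db/db mice was sequenced (HiSeq-3000, single reads). The labels name Ribo-Zero and the study's methods poly-A selection. Per the labels, the authors aligned the reads to GRCm38 with STAR 2.4.0b (the study's methods print another STAR version). Per the labels they counted uniquely aligned reads per gene with featureCounts 1.4.5, and the study's methods add that these were unambiguous. The deposited tables hold raw counts, CPM and RPKM per gene, and the CPM matched counts over the library total. Counts were used for tests, CPM for levels and RPKM for levels compared between genes. Symbols from an annotation table matched 40340 of 41388 features.

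After 355 ribosomal RNA features had been left out, 12270 genes above 1 CPM in at least 3 libraries were fitted with limma 3.58.1 (voom with sample quality weights, TMM factors, R 4.3.3), as in the study's methods, with Benjamini-Hochberg adjustment and a threshold of 0.05. edgeR 4.0.16 and DESeq2 1.42.0 were alternatives, among 17 in all. Labels do not describe the replicates beyond their titles, and the study gives n = 4 mice per group for this RNA-seq. The p-values therefore measure the spread between these mice. Counts within groups differed by more than sampling noise. Floors of 3 reads cover counting error only. The 10 genes and all lists were chosen with earlier results of these data known. Apart from the 10 genes, each list names genes past the threshold, filled up to 2 per direction by smallest p, and exceptions are stated. Windows searched for motifs came from RefSeq.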

Additional observations from a re-analysis of the deposited data

Results flagged for a closer look

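Of 42 values examined in each group (84 groups of 4 libraries), 7 had 1 library whose gap to the nearest of the others passed Dixon's 95% critical share of the group's range, and chance flags about 1 in 20 groups, or 4.2 of 84. Gadd45g was at 25.8 CPM in AdNAMPT library 3 against 4.03 to 6.50 CPM in the other 3. Gadd45b was at 1.61 CPM in AdGFP library 3 against 0.804 to 0.889 CPM. Nr4a1, an immediate early nuclear receptor gene, was at 5.23 CPM in AdNAMPT library 3 against 0.472 to 0.751 CPM. Bmf, a BH3-only gene, was at 8.61 CPM in AdGFP library 1 against 4.94 to 5.50 CPM. Map2k4 was lowest in AdGFP library 4, at 33.4 CPM against 36.6 to 37.0 CPM. Nr1i3 was lowest in AdGFP library 2, at 100.3 CPM against 152 to 162 CPM. Mitochondrial ribosomal RNA took 2.56% of counts in AdGFP library 2 against 1.77% to 1.88% in the other 3.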

How the results depend on the processing

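Results were recomputed under 17 alternatives, 1 of them (without both libraries numbered 3) added after the data had been seen. The count of genes past the adjusted threshold was 34 by limma (2 higher, 32 lower) and 27 to 75 elsewhere, with 75 (15 higher, 60 lower) in DESeq2 and 28 to 38 when 1 library was left out. Among the 10 genes the count was 0, but 1 in DESeq2, 1 with scaling by library size alone, and 0 to 1 when 1 library was left out, Gadd45a passing without AdGFP library 2 (adjusted p 0.0247 in limma). The other p53 target genes had 0 calls, and 1 (Plk2) in DESeq2. The other 7 lists had 0 calls under all 17. Gadd45a had log2 fold changes of 1.03 to 1.39 under all 17. It was chosen with this contrast in view and its groups did not overlap, so its direction could hardly turn. Its adjusted p ran from 0.0116 (DESeq2) to 0.305 (edgeR), and it passed in 3. The near-zero estimates changed sign with single libraries: Gadd45g ranged from -0.93 without AdNAMPT library 3 to 0.65 without AdGFP library 3, Btg2 from -0.47 without AdNAMPT library 3 to 0.49 without AdNAMPT library 2, and Bbc3 from -0.35 to 0.28 without the same 2 libraries. Gadd45b also changed sign, from -0.30 without AdNAMPT library 3 to 0.12 without AdGFP library 3. So did Sesn1, from -0.07 without AdNAMPT library 4 to 0.11 with scaling by library size alone. Cdkn1a, Mdm2, Ccng1 and Bax kept their signs under all 17. Those of Ccng1 and Bax came close to 0, at -0.0017 with scaling by library size alone and 0.0036 without AdGFP library 4. The median of the cell cycle list ran from -0.56 without AdNAMPT library 4 to 0.15 in edgeR. The near-zero medians of the other p53 target genes, of p53 and its regulators and of the Gadd45 partners changed sign when single libraries were left out. With the replicate number as a block, 41 genes passed, none of the 10 did, and Gadd45a had a log2 fold change of 1.06 (limma adjusted p 0.0502). In that fit Gadd45g was at -0.35 with an SE of 0.21, against 0.81 in the main fit (limma adjusted p 0.620 with the block). Deviations of same-numbered libraries correlated at 0.22, -0.044, 0.21 and 0.0070, and 3 of 8 libraries correlated best with their own number, so the pairing was not used. Low counts limit Cdkn1a and Gadd45b, whose libraries held 9 to 42 reads.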
